A study of Sus scrofa with 2 samples.

Results

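The 7 mitochondrially encoded subunits of complex I are ND1, ND2, ND3, ND4, ND4L, ND5 and ND6. They were taken by name from the gene lists of pig skin single-cell RNA libraries, where they make up 7 of 31908 genes, and all 7 were measured in both libraries. Complex I, NADH:ubiquinone oxidoreductase, passes electrons from NADH to ubiquinone and pumps protons across the inner mitochondrial membrane. The ND proteins are core subunits of its proton-pumping membrane arm, while the arm that binds NADH is built of proteins encoded in the nucleus. Mitochondrial DNA is transcribed into long precursors that are cut into mRNAs, mostly at the tRNAs between the genes. ND6 is the only mRNA read from the opposite strand.

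The study compared skin cells used fresh with skin cells that had been cryopreserved, to ask whether a frozen stock can replace fresh cells. Full-thickness dorsal skin of healthy, young male farm pigs was dissociated with enzymes, living cells were sorted, and the fresh library (treatment given as none) and the frozen library (treatment given as frozen, in 90% fetal bovine serum with 10% DMSO and liquid nitrogen) each came from about 8000 loaded cells. There was 1 library per condition. The number of animals and whether the same animal gave both libraries are not given in the sources used here, so cryopreservation, animal and library cannot be told apart. The extract protocol is the same text for both libraries and describes freezing, so the condition rests on the titles and the treatment labels. With 1 library each, no test between the conditions was possible, and the intervals of levels and ratios below cover counting error only. Those of medians over cells cover the uncertainty of the median from sampling the cells of 1 library, and are not the range of the cells.

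Cells were kept with at most 4500 genes, 30000 unique molecular identifiers (UMIs, each marking 1 captured RNA molecule) and 10% of UMIs on the 13 mitochondrial mRNAs, the maxima of the study. This left 2775 of 4379 fresh barcodes with 32274985 UMIs (median 11017 per cell) and 4223 of 4860 cryopreserved barcodes with 36687009 UMIs (median 7945). The 7 ND genes are part of the measure that set the 10% limit, which removed 22.9% of the fresh and 9.18% of the cryopreserved barcodes. The libraries shared 6 cell barcodes. Each of the 13 mitochondrial genes that encode a protein is called an mRNA here, although overlapping genes may share 1 RNA.

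The kit captures RNA by its poly(A) tail and reads near the 3′ end of the RNA. The end of a gene need not be the end of its RNA, as for ND4L, which overlaps ND4 with no tRNA between them. Where along the genes the reads lay was not examined. The last 100 bases of the genes whose levels differed most between the libraries, ND3, ND4L and ND1, and of ND6 are shown on their coding strand, from RefSeq's Sscrofa11.1 assembly, with the letters of the stop codon in capitals. A single capital T marks a stop codon that the annotation completes with the poly(A) tail.

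ND3 (chrMT:10899-10998, plus strand): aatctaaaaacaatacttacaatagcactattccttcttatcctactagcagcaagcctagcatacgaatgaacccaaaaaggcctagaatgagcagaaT
ND4L (chrMT:11266-11365, plus strand): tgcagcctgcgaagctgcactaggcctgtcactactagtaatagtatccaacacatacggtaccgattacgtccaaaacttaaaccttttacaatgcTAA
ND1 (chrMT:4777-4876, plus strand): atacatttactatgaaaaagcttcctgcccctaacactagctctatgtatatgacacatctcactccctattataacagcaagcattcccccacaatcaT
ND6 (chrMT:14739-14838, minus strand): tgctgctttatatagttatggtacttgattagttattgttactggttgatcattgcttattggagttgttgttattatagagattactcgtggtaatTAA

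The ND genes are single coding blocks without introns on the mitochondrial chromosome. ND1 spans 3922 to 4876 (955 bases), ND2 5087 to 6128 (1042 bases), ND3 10653 to 10998 (346 bases), ND4L 11069 to 11365 (297 bases), ND4 11359 to 12736 (1378 bases) and ND5 12935 to 14755 (1821 bases), all on the plus strand. ND6 lies on the minus strand at 14739 to 15266 (528 bases). ND1, ND2, ND3 and ND4 end in the incomplete stop codon, whereas ND4L, ND5 and ND6 end in TAA. ND3 sits between tRNA-Gly and tRNA-Arg, and COX3, a subunit of cytochrome c oxidase, is the next mRNA upstream.

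Within this family, 2 pairs of genes share bases. ND4L overlaps the start of ND4 by 7 bases, and no tRNA lies between them. ND5 and ND6 overlap by 17 bases on opposite strands. Both overlaps are in capitals below, each within its plus-strand surroundings, because position alone does not assign a read there to 1 gene, and for ND5 and ND6 strand is needed too. The sources used here do not state how such reads were counted, so the split between the genes of a pair carries that uncertainty.

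ND4L and ND4 (chrMT:11329-11395, plus strand): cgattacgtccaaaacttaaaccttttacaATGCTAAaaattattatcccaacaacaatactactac
ND5 and ND6 (chrMT:14709-14785, plus strand): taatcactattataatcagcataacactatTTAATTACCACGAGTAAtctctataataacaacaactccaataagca

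Base composition set ND6 apart from the other members, as its coding strand held 20.8% A and 44.9% T, against 33.0% A and 24.7% T in ND1. The run AAAAAA occurred on the coding strand of ND2, ND3, ND4 and ND5 but not of ND1, ND4L or ND6, and was found in 5 of the 13 mitochondrial mRNAs. Copies of mitochondrial sequence in the nuclear genome were also searched. The best nuclear match of each ND gene covered nearly its whole length at 84.5% (ND2) to 93.2% (ND6) identity. Whole alignments of at least 90 bases with at least 95% identity were found for ND1 (2 matches) and ND2 (1 match) and for none of the other ND genes. Stretches inside longer alignments of lower identity were not scanned, so such a stretch could exist in any ND gene.

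Over the whole libraries, ND3 RNA was about 5 times lower in the cryopreserved cells. The counts of ND4L and ND1 were higher, and the remaining ND genes were close in both libraries. ND4L overlaps ND4 with no tRNA between them, so its count need not stand for an RNA separate from that of ND4. ND3 had 27445 UMIs in fresh and 6027 in cryopreserved cells, which is 839 and 166 CPM (UMIs of the gene per 1000000 UMIs, with library totals scaled by TMM factors). Its log2 ratio, cryopreserved over fresh, was -2.33 (95% interval -2.37 to -2.29), a fold of 5.04. ND3 encodes a small subunit whose loop lies near the ubiquinone-binding end of the membrane arm.

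ND4L, the smallest of the ND proteins, had 3990 and 8263 UMIs, or 122 and 228 CPM in fresh and cryopreserved cells, a log2 ratio of 0.90 (interval 0.85 to 0.96). ND1, which sits where the membrane arm joins the ubiquinone site, had 33943 and 52610 UMIs, or 1038 and 1453 CPM, a log2 ratio of 0.49 (interval 0.47 to 0.51). The remaining members lay close to 0 on this scale. ND2, ND4 and ND5 are the antiporter-like subunits of the membrane arm. ND2 stood at 483 and 498 CPM (log2 ratio 0.04), ND4 at 2261 and 2305 CPM (0.03) and ND5 at 380 and 400 CPM (0.07). ND6, the minus-strand member, stood at 61.0 and 58.2 CPM, and its log2 ratio of -0.07 had an interval that included 0 (-0.16 to 0.02).

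**Figure D1:**
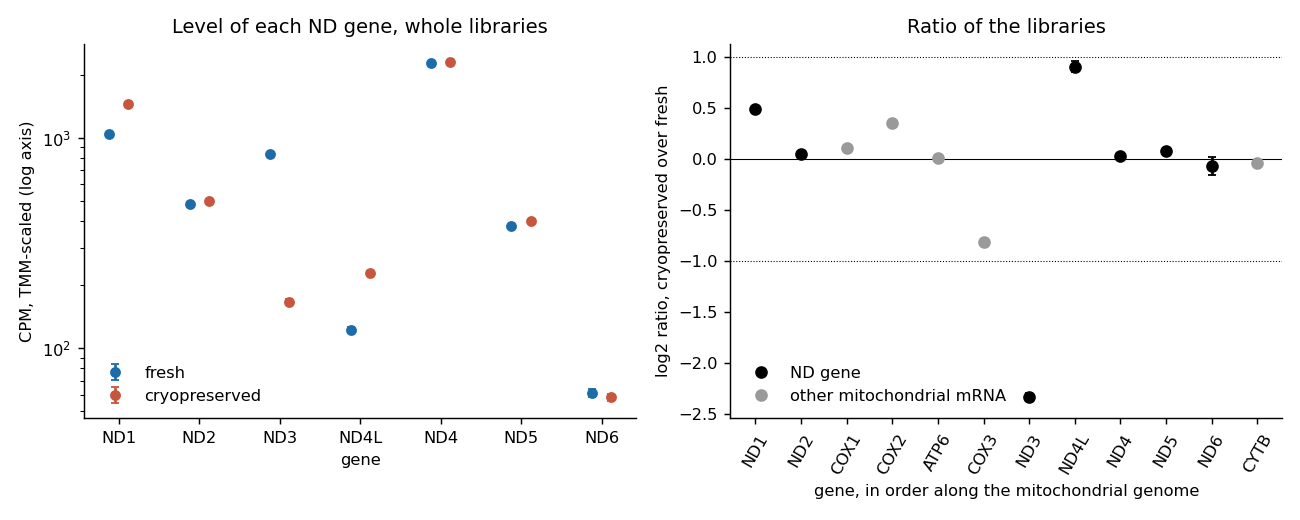
Left, level of each ND gene in the fresh (blue) and cryopreserved (red) library in TMM-scaled CPM on a log axis. Right, log2 ratio of the libraries for the ND genes (black) and the other mitochondrial mRNAs (grey) in order along the mitochondrial genome, with dotted lines at 2-fold and 95% counting intervals as bars. ND3 stands lowest at -2.33 and ND4L highest at 0.90, and they are neighbours on the genome; ATP8, with 21 and 60 UMIs, is not drawn.

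ND3 was the only member past the 2-fold threshold. At that threshold 37 of 11692 genes with at least 200 UMIs were lower in the cryopreserved library (0.316%), 88 were higher (0.753%), and 125 passed in either direction (1.07%). By log2 ratio ND3 ranked 4 from the lowest of these genes, and ND4L ranked 137 and ND1 1038 from the highest. At an absolute log2 ratio of 0.5, which 13.1% of the genes passed (8.29% higher and 4.86% lower), ND3 and ND4L were the 2 members counted. The median log2 ratio was 0.04 over the 7 ND genes and 0.03 over all genes tested. ND4L crossed the 2-fold line when the mitochondrial limit was set at 5% (log2 ratio 1.004) and when each cell was thinned to 1000 UMIs (1.04). No cell held more than 0.401% of the UMIs of any ND gene in either library.

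The sum of the 7 genes was nearly level between the libraries. The ND genes had 169546 fresh and 184987 cryopreserved UMIs, 5184 and 5110 CPM, a log2 ratio of -0.02 (interval -0.03 to -0.01). Without ND3 the sum was 4345 and 4943 CPM, a log2 ratio of 0.19. Among the UMIs of the 13 mitochondrial mRNAs, a scale that library scaling does not move, the 7 genes took 14.77% in fresh and 14.78% in cryopreserved cells. On this scale ND3 went from 2.39% to 0.482%, ND1 from 2.96% to 4.203% and ND4L from 0.348% to 0.660%. ND4, the most abundant member by UMIs, took 6.44% and 6.67%.

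Compared per length, as CPM per kilobase of gene, the order of the levels changed between the libraries. In fresh cells the order was ND3 (2425 CPM per kilobase), ND4 (1641), ND1 (1087), ND2 (464), ND4L (411), ND5 (209) and ND6 (116). In cryopreserved cells ND3 (481 CPM per kilobase) moved behind ND4 (1673), ND1 (1522) and ND4L (769) and stood beside ND2 (478). ND5 (220) and ND6 (110) kept the lowest places. A 3′ kit tags each RNA near its end whatever its length, so the scale per kilobase raises short genes such as ND3 and ND4L.

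The neighbours of ND3 along the genome differed from it in size or in direction. COX3, directly upstream, was also lower, with a whole-library log2 ratio of -0.81 (6674 and 3799 CPM), the lowest of the mRNAs outside the ND family. ATP6, upstream of COX3, had a log2 ratio of 0.01. ND4L, directly downstream of ND3 beyond tRNA-Arg, had the highest ratio among the ND genes. Over the whole libraries COX1 (0.10), COX2 (0.35) and CYTB (-0.04) did not pass 2-fold either. ATP8, which overlaps ATP6, had too few UMIs (21 and 60) to enter the count of genes.

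The ND genes were then followed through 9 lineages. Cells were clustered without the 13 mitochondrial mRNAs as features, so the ND genes did not shape the clusters, and 23 of 24 clusters were named from marker genes, each with at least 5 raised markers of its list. Lineages are called by these markers: keratinocyte-like, fibroblast-like, SMC-like (smooth muscle and pericyte markers), endothelial-like, lymphatic-like, CD163/CD209 myeloid-like, Langerhans or other dendritic-like, T or NK-like and mast-like. The lineages held from 68 (mast-like) to 1215 (fibroblast-like) fresh and from 82 to 1571 cryopreserved cells. The unnamed cluster had 3 fresh and 21 cryopreserved cells. It held 0 ND UMIs among 16559 in the fresh library, which allows a share of up to 0.0181% at a floor of 3 counts (0.0223% as the exact Poisson 95% upper bound), and 11 among 34720 (0.0317%) in the cryopreserved library.

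ND3 was lower in the cryopreserved cells in 9 of 9 lineages, past 2-fold in each. In fresh cells its level ran from 434 CPM in lymphatic-like cells through a median of 882 CPM to 1169 CPM in T or NK-like cells. In cryopreserved cells it ran from 80.2 CPM in lymphatic-like through a median of 168 CPM to 207 CPM in Langerhans or other dendritic-like cells. The levels of the libraries did not overlap, the highest cryopreserved lineage lying below the lowest fresh lineage.

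Such a gap between the libraries was counted over all genes with at least 200 UMIs in the lineages together. Of 11691 genes, 3 (0.0257%) had levels over the 9 lineages that did not overlap, and all 3 were lower in the cryopreserved library. A gene missing from a fresh lineage could not be counted as lower, and only 457 genes had at least 200 UMIs in mast-like cells. The share is therefore not the rate among genes as abundant as ND3, which was not counted. The others, named after their values were seen, were PRMT2, an arginine methyltransferase gene (78.9 to 121 CPM fresh, 6.29 to 25.8 CPM cryopreserved), and ENSSSCG00000047796 (11.7 to 24.0 CPM fresh, 1.34 to 6.68 CPM cryopreserved). The levels of the other 6 ND genes overlapped between the libraries.

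Within lineages the log2 ratio of ND3 went from -2.01 (interval -2.08 to -1.94) in keratinocyte-like cells, the closest to 0, to -2.75 (interval -2.96 to -2.55) in CD163/CD209 myeloid-like cells. Genes at least 2-fold lower, a smaller drop than that of ND3, were counted among all genes with at least 200 UMIs in the lineage. They made up 0.117% in SMC-like, 0.206% in keratinocyte-like, 0.275% in endothelial-like, 0.335% in fibroblast-like, 0.389% in lymphatic-like and 0.389% in T or NK-like cells. The share was 1.12% in CD163/CD209 myeloid-like, 1.42% in Langerhans or other dendritic-like and 1.75% in mast-like cells. Among the finer clusters, all 21 with at least 50 cells had an ND3 log2 ratio past 2-fold, from -3.03 in a myeloid cluster led by MARCO to -1.61 in a keratinocyte cluster led by the cell division genes DIAPH3 and CDC20. As a share of mitochondrial mRNA, ND3 took 1.44% to 3.05% in these clusters in fresh cells and 0.2504% to 0.715% in cryopreserved cells, again with no overlap. A drop in every lineage was not particular to ND3. COX3 was lower in 9 of 9 lineages with all 9 intervals below 0, although its levels overlapped between the libraries. COX3 was past 2-fold in fibroblast-like (-1.02) and CD163/CD209 myeloid-like cells (-1.11), and closest to 0 in mast-like cells (-0.45).

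**Figure D2:**
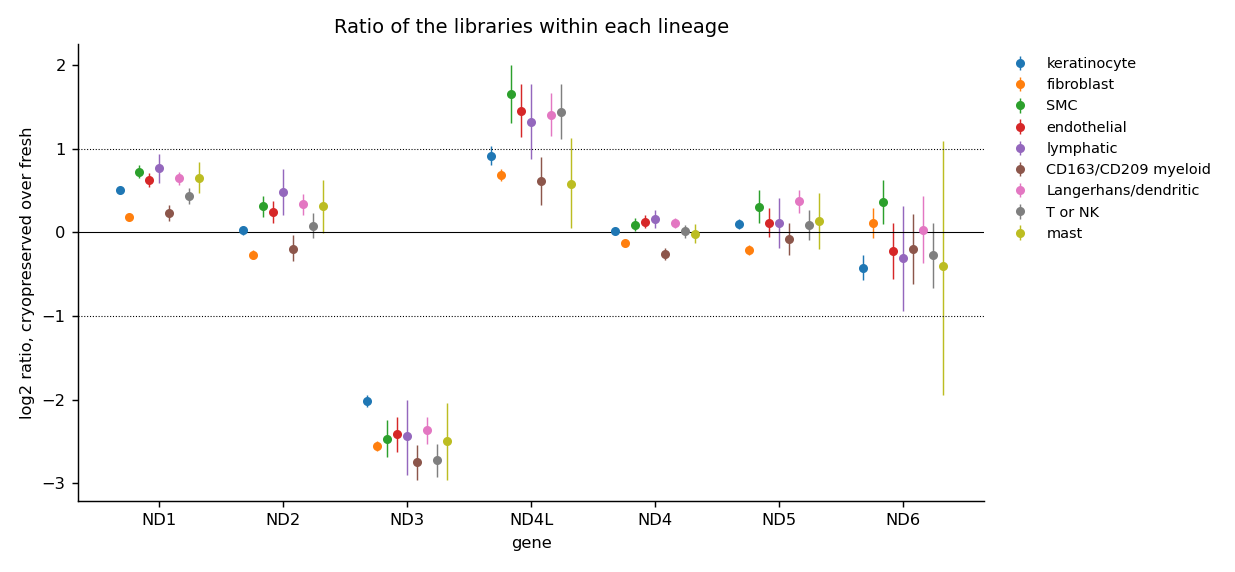
Log2 ratio of the libraries, cryopreserved over fresh, for each ND gene in each of the 9 lineages, with 95% counting intervals and dotted lines at 2-fold. ND3 lies below -2 in every lineage, ND1 and ND4L lie above 0 in every lineage, and ND2, ND4, ND5 and ND6 fall on both sides of 0 on this scale of total UMIs per lineage.

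ND4L was higher in the cryopreserved cells in 9 of 9 lineages. Its log2 ratio was 1.65 (interval 1.31 to 2.01) in SMC-like cells, where it went from 47.8 to 150.3 CPM. It passed 2-fold also in endothelial-like (1.46), T or NK-like (1.44) and Langerhans or other dendritic-like cells (1.41), each with at least 200 UMIs. Genes at least 2-fold higher made up 0.438% of those tested in SMC-like, 0.903% in endothelial-like, 0.778% in T or NK-like and 0.922% in Langerhans or other dendritic-like cells. They made up 0.864% in keratinocyte-like, 0.458% in fibroblast-like and 0.894% in CD163/CD209 myeloid-like cells, where ND4L stayed under 2-fold. In lymphatic-like and mast-like cells, where this share was 1.56% and 0.219%, ND4L and ND6 had fewer than 200 UMIs and were not counted. In lymphatic-like cells the ratio was 1.32, on 67 and 124 UMIs. The smallest ratio, 0.58 in mast-like cells, rested on 50 and 79 UMIs and had a wide interval (0.06 to 1.13). Among the 21 clusters ND4L was higher in 20, the exception being the MARCO cluster at -0.44.

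ND1 was likewise higher in 9 of 9 lineages, with no lineage past 2-fold. Its log2 ratio went from 0.18 (interval 0.15 to 0.22) in fibroblast-like cells, 849 and 965 CPM, to 0.77 (interval 0.60 to 0.94) in lymphatic-like cells, 614 and 1045 CPM. Among the 21 clusters ND1 was higher in 20, the exception being the fibroblast cluster led by KCND2, CTHRC1 and ASPN at -0.02. In fibroblast-like and CD163/CD209 myeloid-like cells, where the ND1 ratio was smallest, the UMIs of all 13 mitochondrial mRNAs together had log2 ratios of -0.30 and -0.34. Relative to the other mitochondrial mRNAs, ND1 had log2 ratios of 0.50 and 0.59 there, within a range of 0.47 to 0.64 over the 9 lineages. On the same scale ND4L had 0.99 and 0.96 there, within a range from 0.38 in mast-like cells, with an interval that included 0, to 1.57 in T or NK-like cells. COX2, outside the ND family, was also higher on this scale in 9 of 9 lineages, from 0.42 to 0.60.

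Relative to all UMIs of a lineage, ND2, ND4, ND5 and ND6 had no common direction over the lineages. ND4 had log2 ratios from -0.26 in CD163/CD209 myeloid-like to 0.16 in lymphatic-like cells, and ND2 from -0.27 in fibroblast-like to 0.48 in lymphatic-like cells. ND5 ran from -0.21 in fibroblast-like to 0.37 in Langerhans or other dendritic-like cells. ND6 ran from -0.42 in keratinocyte-like to 0.36 in SMC-like cells. With TMM scaling inside each lineage in place of total UMIs, ND5 changed sign in CD163/CD209 myeloid-like cells, from -0.07 to 0.04, and no other of these ND ratios did. Relative to the other 12 mitochondrial mRNAs, the picture differed. On that scale ND2 was higher in 8 of 9 lineages, with 5 intervals above 0 and 0 below, and ND5 was higher in 7 of 9, with 5 intervals above 0 and 0 below. ND4 was higher in 6 of 9 lineages, with 3 intervals above 0 and 2 below. In fibroblast-like cells its log2 ratio turned from -0.13 to 0.18. ND6 was higher in 3 of 9, up to 0.41 in fibroblast-like cells, with 1 interval above 0 and 1 below. Its interval below 0 was in keratinocyte-like cells (-0.46). The lowest ND6 value, -0.60 in mast-like cells, rested on 10 and 8 UMIs (interval -2.14 to 0.89). The mRNAs compared against include ND3 and COX3, both lower in 9 of 9 lineages, so a higher value here is not particular to the ND genes. COX1 and ATP6 were also higher on this scale in 9 of 9 lineages, with 8 and 5 intervals above 0, and CYTB was higher in 6 of 9.

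The share of the 7 ND genes together ranged widely over the lineages in both libraries. Mast-like cells had the highest share, 0.878% of their UMIs when fresh (interval 0.842 to 0.915%) and 0.904% when cryopreserved. Keratinocyte-like cells were next with 0.657% and 0.669%. The lowest shares were 0.363% in fresh lymphatic-like cells and 0.344% in cryopreserved CD163/CD209 myeloid-like cells. The mitochondrial limit, whose measure includes the ND genes, cut the predicted lineages unequally. Removed barcodes were not clustered, and each took the most common lineage among its 15 nearest kept cells in its library. Of the fresh barcodes above the limit, 530 had 40 to 100% of their UMIs on mitochondrial mRNAs, which leaves fewer other UMIs to place them by. By this placement keratinocyte-like cells lost 488 fresh beside 530 kept, and 146 cryopreserved beside 1058 kept. Mast-like cells lost 8 beside 68 and 38 beside 82, and SMC-like cells 9 beside 246 and 12 beside 374. The shares, their order and the ratios of the sum by lineage therefore describe only cells within the limit.

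In the fresh library the order was mast-like, keratinocyte-like, Langerhans or other dendritic-like (0.599%), T or NK-like (0.595%), endothelial-like (0.555%), fibroblast-like (0.475%), CD163/CD209 myeloid-like (0.417%), SMC-like (0.395%) and lymphatic-like. Only the counting intervals of Langerhans or other dendritic-like and T or NK-like cells overlapped among neighbours in this order. Those intervals hold no variation between cells. Medians per fresh cell partly reversed the order, at 0.596% in endothelial-like (interval 0.557 to 0.625%), 0.584% in T or NK-like (0.533 to 0.635%) and 0.574% in Langerhans or other dendritic-like cells (0.511 to 0.618%). CD163/CD209 myeloid-like cells (0.435%) also had a higher median than fibroblast-like cells (0.424%). In the cryopreserved library no neighbours overlapped by counting interval, and fibroblast-like cells (0.393%) stood below SMC-like (0.462%) and lymphatic-like cells (0.418%). Intervals of the medians per cell did overlap there, as in Langerhans or other dendritic-like (0.552 to 0.719%) and endothelial-like cells (0.552 to 0.686%). The log2 ratio of the sum was -0.28 in CD163/CD209 myeloid-like and -0.27 in fibroblast-like cells, -0.07 in T or NK-like cells, and between 0.02 and 0.22 in the other 6 lineages. Within the fibroblast-like cells, clusters with at least 50 cells spanned 0.249% to 0.630% of UMIs on ND genes in the fresh and 0.211% to 0.634% in the cryopreserved library. The cluster led by SEMA3G, PTX3 and SLC22A3 was at the low end and the cluster led by MYL10, WIF1 and RAB26 at the high end in both.

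**Figure D3:**
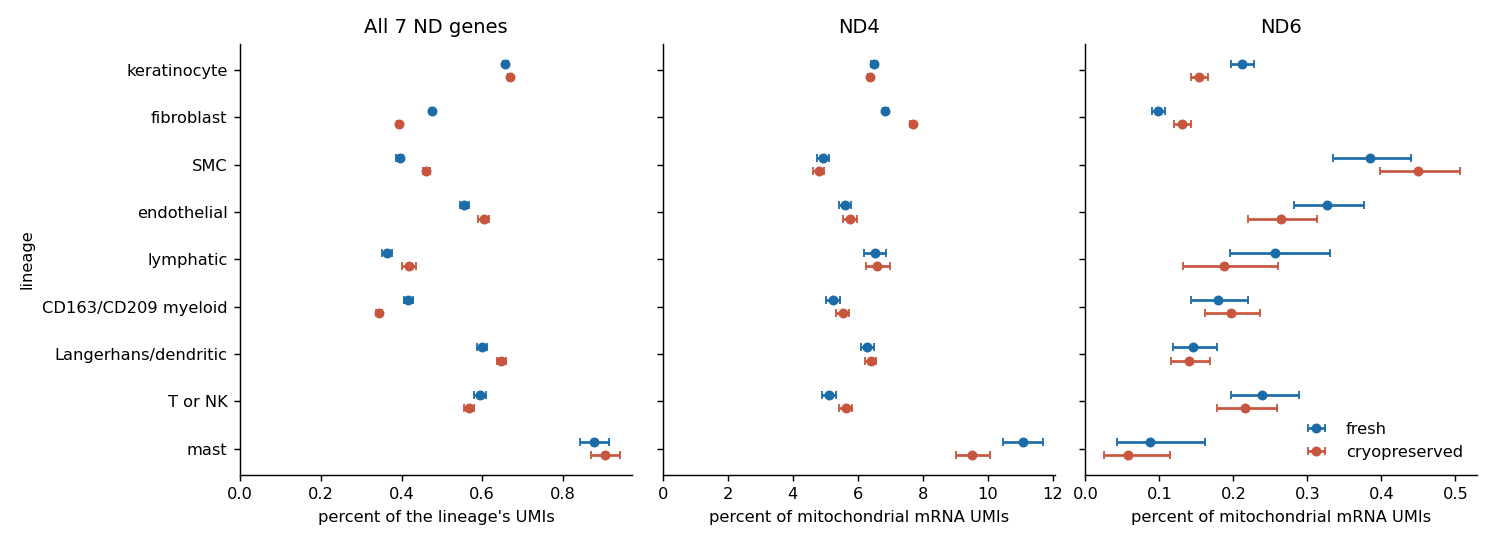
Levels by lineage in fresh (blue) and cryopreserved (red) cells, with 95% counting intervals. The left panel gives all 7 ND genes as a percent of the lineage's UMIs, and the middle and right panels give ND4 and ND6 as a percent of mitochondrial mRNA UMIs. Mast-like cells stand highest for the sum and for ND4 and lowest for ND6 in the cryopreserved library, and SMC-like cells stand highest for ND6.

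ND4 had the most UMIs of the ND genes in every lineage of both libraries except cryopreserved SMC-like cells, where ND1 had 3615 and ND4 2942 UMIs. The share of mitochondrial mRNA that each ND gene took varied over the lineages. ND4 took 11.07% of mitochondrial mRNA UMIs in fresh and 9.52% in cryopreserved mast-like cells, while in the other 8 lineages it took 4.93% to 6.84% and 4.79% to 7.68%. ND6 took 0.385% and 0.450% in SMC-like cells and 0.327% and 0.264% in endothelial-like cells. In mast-like cells ND6 took 0.0879% and 0.0580%, on 10 and 8 UMIs, and in fibroblast-like cells 0.0982% and 0.131%. ND3 had its highest share of mitochondrial mRNA in fibroblast-like cells (2.89% and 0.606%) and its lowest in lymphatic-like cells (1.5003% and 0.2504%) in both libraries. ND1 had its highest share in SMC-like cells, 3.91% and 5.89%.

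In single cells the ND3 distributions of the libraries overlapped little. Among cells with at least 50 mitochondrial mRNA UMIs, the median ND3 share of those UMIs was 2.25% over 2733 fresh cells, with the 5th to 95th percentile from 0.624% to 4.63%. Over 4142 cryopreserved cells the median was 0.409%, with the 5th to 95th percentile from 0 to 1.44%. The median ND3 count per cell was 8 UMIs in fresh and 1 UMI in cryopreserved cells. Of the cryopreserved cells, 0.797% had a share above the fresh median. These shares rest on few UMIs per cell, so part of their spread is counting error.

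**Figure D4:**
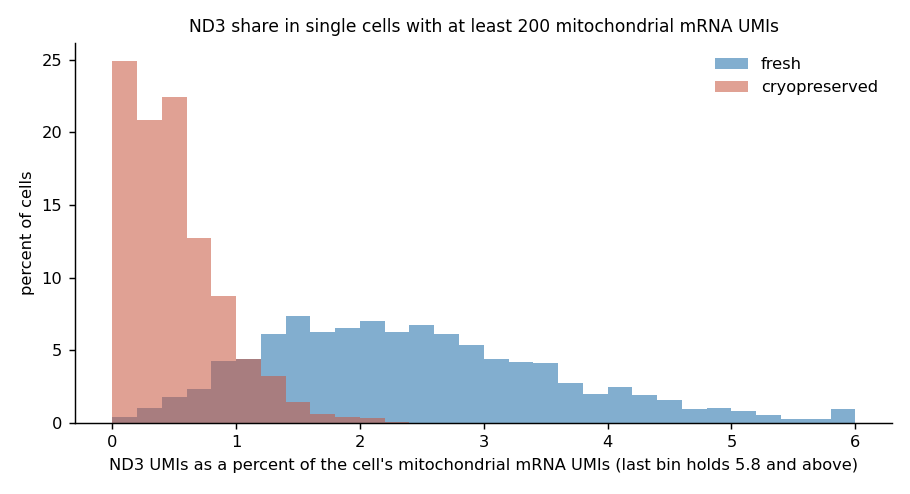
ND3 UMIs as a percent of a cell's mitochondrial mRNA UMIs, in fresh (blue) and cryopreserved (red) cells with at least 200 such UMIs, in bins of 0.2 percentage points as a percent of each library's cells. The bin from 0 to 0.2% holds 24.9% of the cryopreserved and 0.376% of the fresh cells, no cryopreserved cell lies above 2.4%, and the last bin holds all cells at 5.8% or more.

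The other members overlapped more. Of the cryopreserved cells, 75.8% had an ND1 share above the fresh median (medians 2.86% and 4.03%) and 69.4% an ND4L share above it (medians 0.257% and 0.549%). For ND4 it was 55.1% (medians 6.10% and 6.37%), for ND2 53.4% and for ND5 53.2%. The median share of all UMIs on the 7 ND genes was 0.499% per fresh cell (interval 0.482 to 0.513%) and 0.497% per cryopreserved cell (interval 0.484 to 0.511%). After thinning each cell to 1000 UMIs, which left out 27 fresh and 32 cryopreserved cells, the median was 0.5% in both, 5 UMIs of 1000.

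Depth and the mitochondrial share of a cell differed between the libraries, and the ND genes were therefore read within bins of both. In 5 bins of UMIs per cell, from 500 to 30000, ND3 took 2.33% to 2.48% of mitochondrial mRNA in fresh and 0.407% to 0.560% in cryopreserved cells. In bins of mitochondrial share up to 10% it took 2.30% to 2.66% and 0.435% to 0.615%. In the barcodes above the 10% limit, which were not used above, ND3 took 2.32% of mitochondrial mRNA in fresh and 0.474% in cryopreserved barcodes.

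The CPM ratio of ND1 moved with depth. Its log2 ratio was 0.56 in cells with up to 4000 UMIs and 0.12 in cells with 16000 to 30000 UMIs, and as a share of mitochondrial mRNA it was 0.67 and 0.46 in the same bins. That of ND4L was 0.56 and 0.79 in those bins, and that of ND4 was -0.17 and -0.21. Without the mitochondrial limit, where more fresh barcodes enter, the log2 ratio of the ND sum was -0.42 and those of ND2, ND4 and ND5 were -0.38, -0.35 and -0.39, while ND3 stood at -2.73, ND1 at 0.09 and ND4L at 0.50.

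**Figure D5:**
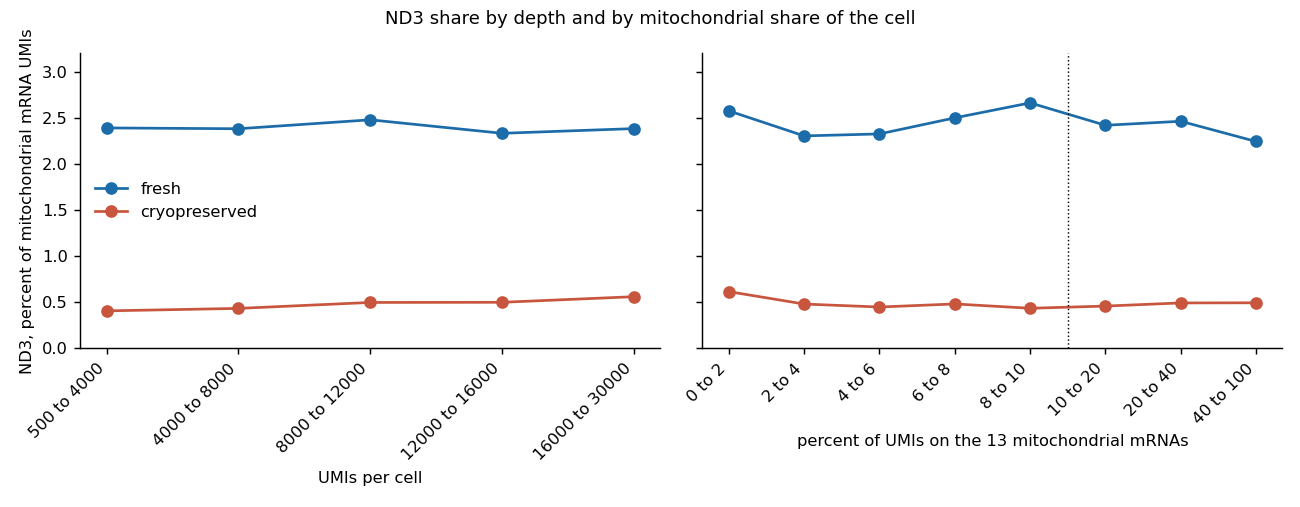
ND3 as a percent of mitochondrial mRNA UMIs in fresh (blue) and cryopreserved (red) cells, by UMIs per cell (left) and by the percent of a cell's UMIs on the 13 mitochondrial mRNAs (right), where bins right of the dotted line are above the 10% limit. The fresh values lie between 2.24% and 2.66% and the cryopreserved values between 0.407% and 0.615% in all bins.

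The subunits of complex I encoded in the nucleus were read as a list of 37 genes, of which 30 were found by symbol and 29 had at least 200 UMIs. None passed 2-fold, beside 1.07% of all genes. Of the 29, 28 had a log2 ratio above 0 and 1 below, with a median of 0.38 beside 0.03 over all genes, and 7 were at 0.5 or above, beside 8.29% of all genes. The highest were NDUFA1 (0.80, 52.4 and 91.0 CPM) and NDUFB11 (0.67, 27.8 and 44.1 CPM), accessory subunits of the membrane arm. The lowest were NDUFS1 (-0.12, 17.1 and 15.7 CPM) and NDUFS3 (0.02, 31.9 and 32.2 CPM), core subunits of the arm that carries electrons. Summed over the list, the log2 ratio was above 0 in 9 of 9 lineages, from 0.12 in endothelial-like to 0.50 in mast-like cells.

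The balance of ND to nuclear complex I UMIs differed in level between lineages. Endothelial-like cells held 7.94 ND UMIs per nuclear complex I UMI in fresh and 7.91 in cryopreserved cells, the highest of the 9 lineages in both. CD163/CD209 myeloid-like cells held 2.63 and 1.61, the lowest in both. Keratinocyte-like cells, second in ND share, held 3.35 and 2.83.

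A second list of 32 symbols held mostly genes that make, process or degrade mitochondrial RNA. Of these symbols, 28 were found and 22 had at least 200 UMIs. Those counted include POLG and TWNK, of mitochondrial DNA replication (log2 ratios 0.48 and 0.03). None passed 2-fold, beside 1.07% of all genes, a share at which few or none of 22 would pass. Their log2 ratios were above 0 for 16 and below 0 for 6, with a median of 0.18 beside 0.03 over all genes. The highest were HSD17B10, a subunit of mitochondrial RNase P (0.57, 220 and 362 UMIs), and MTERF3, of the mitochondrial transcription termination factor family (0.53). The lowest were TFB1M, a mitochondrial rRNA methyltransferase (-0.27), and SUPV3L1, a helicase of mitochondrial RNA degradation (-0.27).

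Likeness of pattern was measured as Pearson's r of log2(CPM + 1) over the 18 sums of a lineage and a library, across 11691 genes. These sums share 2 libraries and differ in depth, and r is given as a description. For the summed ND genes the closest were ND5 (0.92) and ND4 (0.91), which are part of the sum, then ENSSSCG00000001930 (0.89), TRIT1, a tRNA-modifying enzyme (0.85), and HBS1L (0.81). Outside the mitochondrial mRNAs HDGF (0.81) and CREB3 (0.80) followed. For ND3 the closest were PRMT2 (0.90), COX3 (0.88), ENSSSCG00000044813 (0.87), ENSSSCG00000047796 (0.84) and the ribosomal protein gene RPS20 (0.78). RPL7 (0.74) followed outside the mitochondrial mRNAs. Because ND3 differs so much between the libraries, a gene lower in the cryopreserved library gains in r with it. PRMT2, COX3 and ENSSSCG00000047796 were such genes, and likeness over lineages within a library was not separated from this.

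Among the ND genes themselves, over the 9 lineages of each library, ND1 and ND2 were most alike (r of 0.96 fresh and 0.98 cryopreserved). ND4L and ND6 were the least alike in the fresh library, with r of -0.75. Over the 21 pairs of ND genes the median r was 0.54 (fresh) and 0.64 (cryopreserved).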

How the data were processed

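Fresh and frozen pig skin cells were profiled with the 10x Genomics 3′ kit, version 3, with 1 library each. The authors counted UMIs per gene and barcode with Cell Ranger 4.0.0 and STAR 2.5.1b against Sscrofa11.1 with Ensembl genes, and the deposited matrices hold these raw counts. Cells were filtered by the maxima of the study. No doublet caller was run here, and the study used scatter gates in the sort and these maxima against doublets.

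Counts were summed per library and scaled with TMM factors (edgeR 4.0.16). Sums per lineage were scaled by total UMIs. The design holds no test. Ratios carry exact conditional binomial intervals, levels exact Poisson intervals and medians order-statistic intervals, all at 95%. Cells were integrated and clustered with Seurat 5.3.0 (2000 features without the 13 mitochondrial mRNAs, 30 dimensions, resolution 0.8, 24 clusters). A cluster was named when at least 3 markers, found in at least 10% of its cells, were raised 2-fold over the median of the clusters. That reference was set after a comparison with the remaining cells had left fibroblast clusters unnamed, and both keratinocyte lists were joined. Likeness used log2(CPM + 1), pseudocount 1.

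Genes needed 200 UMIs over both libraries to be counted. All 7 ND genes are named, and of each pathway list the 2 highest and 2 lowest log2 ratios. Symbols missing from the matrices (7 nuclear complex I genes) were not looked for elsewhere. Nuclear copies were searched with BLAST+ 2.17.0. Scripts were tested on simulated data. The members and lists were chosen with earlier results of these data known. Alternatives were scaling (DESeq2 1.42.0 size factors, total UMIs), cell limits, thinning, clustering and count minimum.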

Additional observations from a re-analysis of the deposited data

Results flagged for a closer look

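Relative to all UMIs of a lineage, the ratio of the libraries pointed one way in one lineage and the other way in another for 4 ND genes, with both counting intervals clear of 0, and the difference between the lineages was not tested. The log2 ratio of ND2 was -0.27 in fibroblast-like and 0.48 in lymphatic-like cells. That of ND4 was -0.26 in CD163/CD209 myeloid-like and 0.16 in lymphatic-like cells. For ND5 it was -0.21 in fibroblast-like and 0.37 in Langerhans or other dendritic-like cells. ND6 had -0.42 in keratinocyte-like and 0.36 in SMC-like cells. The negative values of ND2, ND4 and ND5 and the positive value of ND4 depend on that scale. The 13 mitochondrial mRNAs together had log2 ratios of -0.30 in fibroblast-like and -0.34 in CD163/CD209 myeloid-like cells. They include ND3 and COX3, both lower in 9 of 9 lineages, which bears on any ratio taken against them. Relative to the other 12 mitochondrial mRNAs, ND2 in fibroblast-like cells was at 0.03 (interval -0.02 to 0.08), ND5 in fibroblast-like cells at 0.09 (0.03 to 0.15) and ND4 in CD163/CD209 myeloid-like cells at 0.09 (0.01 to 0.16). On that scale ND4 in lymphatic-like cells was at 0.02 (interval -0.09 to 0.13). ND2 in lymphatic-like cells, at 0.34 (0.07 to 0.61), and ND5 in Langerhans or other dendritic-like cells, at 0.29 (0.15 to 0.43), stayed above 0. ND6 stayed at -0.46 in keratinocyte-like cells and was at 0.22 in SMC-like cells, with an interval that included 0 (-0.04 to 0.49). Each value rests on 1 fresh and 1 cryopreserved library, and the intervals hold no variation between animals or preparations.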

How the results depend on the processing

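No paired analysis was possible because each condition had 1 library. For the same reason no replicate could be left out. The log2 ratio of the ND sum, -0.02, became -0.0591 with total UMIs and -0.0613 with total UMIs without the mitochondrial mRNAs, -0.27 over all barcodes, -0.42 without the mitochondrial limit, -0.0458 with a limit of 5%, 0.0575 in cells thinned to 1000 UMIs and -0.0381 with the lineage shares of the fresh library. ND3, at -2.33, moved to -2.37 with totals without the mitochondrial mRNAs, -2.58 over all barcodes and -2.73 without the limit, and stayed past 2-fold in all 9 lineages under each clustering and scaling tried. Allowing the mitochondrial mRNAs as clustering features could not change this, because 0 of them were among the features selected. Genes past 2-fold numbered 125, 4676 with no count minimum and 1537 at a log2 ratio of 0.5, where 2 ND genes passed in place of 1. Over all barcodes the median ND share per cell was 0.603% fresh and 0.531% cryopreserved, from 0.499% and 0.497%. The sign of ND4 changed under 4 of 9 settings and that of ND2 and ND5 under 2 each, which leaves no direction for these genes. Depth limited ND6 in mast-like cells (10 and 8 UMIs), where the interval of the ratio held 0.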
